A study of Mus musculus with 16 samples.

Results

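This account follows 10 transcription factors that sense bile acids, sterols, fatty acids, thyroid hormone and foreign compounds, in the livers of mice from a study of AKR1B10 and berberine in fatty liver disease. They are the rows of the gene table named Nr1i2, Nr1i3, Nr1h3, Nr1h4, Rxra, Ppard, Pparg, Ahr, Esrra and Thrb, 10 of its 55401 genes, and each name was found once. Livers of 4 groups of 4 mice, 16 libraries in all, were profiled by sequencing of poly(A) RNA. The groups, in the words of the labels, were AKR1B10 knockdown mice with BBR, AKR1B10 knockdown mice without it, negative control mice with BBR, and negative control mice without it. BBR is read here as berberine, a plant alkaloid named in the title of the series, and all 16 samples carry the vector abbreviation AAV in their descriptions. The strain, age, sex, diet, dose, length of treatment, promoter of the vector and sequence targeted are not given in the sources used here.

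Most of these proteins are nuclear receptors, which bind a small lipophilic molecule and a short DNA element and switch neighbouring genes on or off. PXR (Nr1i2) and CAR (Nr1i3) respond to drugs and other foreign compounds and induce cytochromes P450 and transporters. LXR alpha (Nr1h3) responds to oxysterols, FXR (Nr1h4) to bile acids, TR beta (Thrb) to thyroid hormone, and the PPARs to fatty acids, and all of them bind DNA with RXR alpha (Rxra) as their partner. ERR alpha (Esrra) is an orphan receptor that drives mitochondrial genes together with coactivators of the PGC-1 family. AHR (Ahr), the aryl hydrocarbon receptor, belongs to another family, the bHLH-PAS proteins, and induces Cyp1a genes with its partner ARNT.

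The libraries held between 46273129 and 66235443 counts. The share of counts on genes of the mitochondrial genome was 35.4% in knockdown library 4, against 10.98% to 15.9% in the other 15 libraries. FPKM, the deposited unit of level (fragments scaled to transcript length and to the mapped total of the library), is not corrected for that share, so the tests used counts with TMM factors, which scale libraries by their bulk of genes, and CPM below are counts scaled by depth and those factors. Akr1b10, the mouse gene with the symbol in the label, averaged 0.451 ± 0.058 FPKM in the libraries labelled knockdown with berberine, 0.528 ± 0.230 FPKM in those labelled knockdown, 0.359 ± 0.169 FPKM in the negative controls with berberine and 0.397 ± 0.151 FPKM in the negative controls (SD, n = 4 each). It was not lower under the knockdown label, and directions are given below for the libraries so labelled. The hepatocyte markers Alb, Apoa1, Ttr and Serpina1c were abundant in every library, with a summed level of 20100 to 39112 FPKM. Knockdown library 4 gave the lowest sum, and the lowest sums of the other groups were 31551.5 to 34209 FPKM. Its Alb was 6810 FPKM against 13465 FPKM or more elsewhere, while its Apoa1 (9974 FPKM) lay within the range of the other libraries. Acute phase genes summed to 19626 FPKM in knockdown library 3 and 17898.5 FPKM in berberine-treated control library 2. The lowest libraries of those groups held 2174 FPKM (knockdown library 4) and 3546 FPKM. In bulk liver, fewer cells of a type and less RNA per cell cannot be told apart.

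Nr1i3 was the most abundant of the 10 transcripts and Ppard the scarcest. The means over 16 libraries were 91.2 FPKM for Nr1i3, 45.9 FPKM for Nr1h4, 45.5 FPKM for Rxra, 39.6 FPKM for Nr1i2 and 24.1 FPKM for Nr1h3. Esrra followed with 8.05 FPKM, Ahr with 3.81 FPKM, Pparg with 2.59 FPKM, Thrb with 1.55 FPKM and Ppard with 0.564 FPKM. In that order the ranges of neighbours overlapped over the libraries, except between Nr1h3 (20.2 to 28.0 FPKM) and Esrra (4.04 to 12.3 FPKM). Within libraries, Nr1i3 lay above Nr1h4 in 16 of 16, whereas Nr1h4 lay above Rxra in 8 of 16 and Rxra above Nr1i2 in 10 of 16, so the order of those 3 is not settled. A list of 47 nuclear receptor genes of the table, without Rxrb and Rxrg, was ranked by mean level. Nr1i3 and Hnf4a, the hepatocyte master regulator (88.4 FPKM), had the highest means in it. Nr1i3 lay above Hnf4a in 8 of 16 libraries, so their order is not settled. Nr0b2, which encodes the repressor SHP, followed with 58.2 FPKM. Nr1h4, Rxra and Nr1i2 ranked 4, 5 and 6, while Pparg ranked 19 and Thrb 24.

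**Figure D1:**
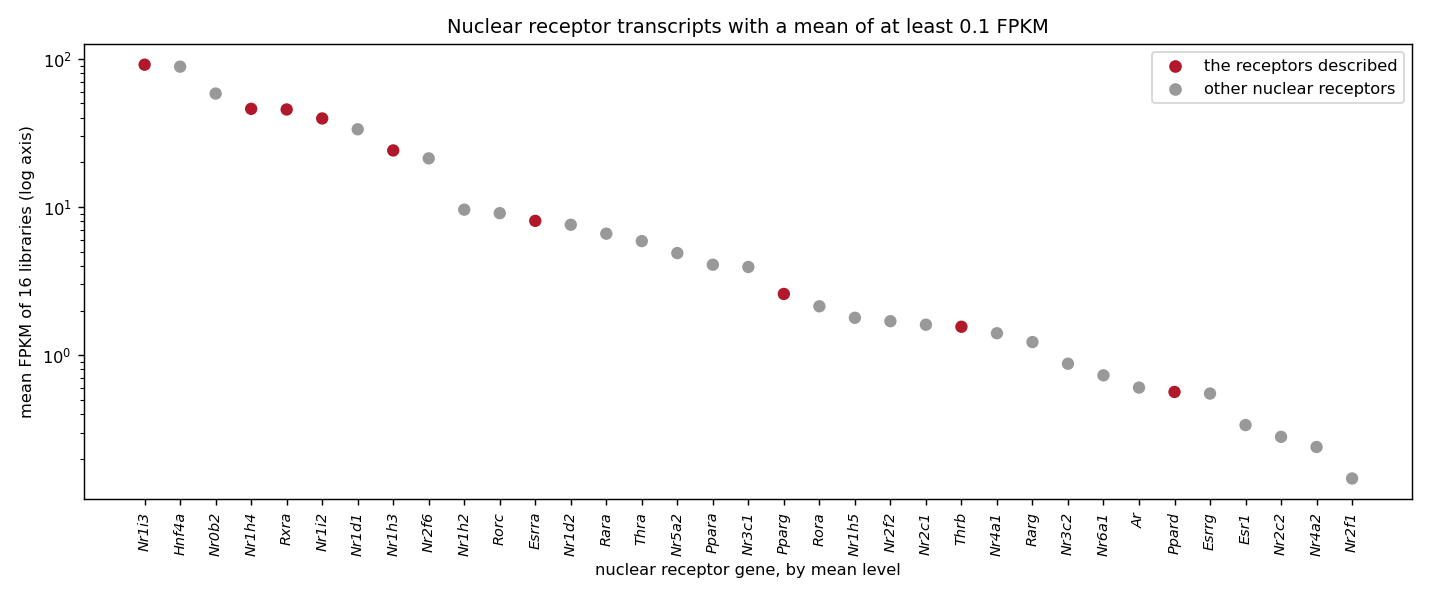
Mean FPKM over the 16 libraries (log axis), by level, of 35 listed nuclear receptor genes with a mean of at least 0.1 FPKM. Red points are the receptors described here and grey points the others. Rxrb and Rxrg were not in the list. Nr1i3 (91.2 FPKM) and Hnf4a (88.4 FPKM) lie at the top, and Thrb (1.55 FPKM) and Ppard (0.564 FPKM) lie far down the order.

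The foreign-compound sensor Nr1i2 (ENSMUSG00000022809; mm10, chr16:38248323-38294824, minus strand, 9 exons) was the 1 receptor with an unadjusted p under 0.05 in any of the comparisons. Its levels were 38.8, 40.3, 44.5 and 48.1 FPKM in the libraries labelled knockdown with berberine, against 26.7, 22.2, 38.6 and 28.2 FPKM in the negative controls with berberine. They were 55.1, 40.4, 47.3 and 41.9 FPKM in the libraries labelled knockdown, against 34.8, 40.1, 38.5 and 47.4 FPKM in the negative controls. Of the 4 berberine-treated controls, libraries 1, 2 and 4 stood below every other library, and library 3 lay among the untreated controls. In FPKM the berberine-treated groups did not overlap, by a margin between 38.6 and 38.8 FPKM, and after TMM scaling they did, with 103 to 136 CPM under the knockdown label and 68.0 to 108 in the controls. The means were 42.9 ± 4.24, 46.2 ± 6.65, 28.9 ± 6.93 and 40.2 ± 5.27 FPKM in the libraries labelled knockdown with berberine, those labelled knockdown, the negative controls with berberine and the negative controls (SD, n = 4 each).

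For Nr1i2 the log2 fold change of berberine over none in the negative controls was -0.47 (SE 0.16, unadjusted p = 0.0105), and that of the knockdown label over control under berberine was 0.52 (SE 0.16, unadjusted p = 0.00530). Neither passed: after Benjamini-Hochberg adjustment over 10846 genes, edgeR gave adjusted p-values of 0.999 and 0.995 in its quasi-likelihood test. Both contrasts use the same 4 berberine-treated controls, so they are not independent. Without berberine the label gave 0.31 (SE 0.16, adjusted p = 0.359 by the same test), and berberine under the knockdown label gave -0.26 (SE 0.16, adjusted p = 0.627). The difference between the berberine effects, knockdown label minus control, was 0.21 (SE 0.23), so the responses of the vectors were not shown to differ. In every one of the 29 settings tried, Nr1i2 kept its direction and an unadjusted p under 0.05 in those contrasts of berberine-treated controls, with adjusted p-values from 0.394 upward for berberine and from 0.322 upward for the label.

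Nr1i3 (ENSMUSG00000005677; chr1:171213970-171219001, plus strand, up to 9 exons), the gene of CAR, ran high and uneven. It held 68.9, 77.0, 72.7 and 133 FPKM in the libraries labelled knockdown with berberine, against 79.3, 43.7, 94.3 and 64.2 FPKM in the negative controls with berberine. In the libraries labelled knockdown it held 108, 89.2, 64.4 and 148 FPKM, against 78.7, 95.4, 105 and 137 FPKM in the negative controls. Library 4 was the highest of its group in 3 of the 4 groups, and the groups overlapped in every comparison. The log2 fold change of berberine over none was -0.42 (SE 0.32, adjusted p = 0.701) under the knockdown label and -0.56 (SE 0.32, adjusted p = 0.999) in the negative controls by edgeR's quasi-likelihood test. The 95% intervals of the fold, 0.464 to 1.20 and 0.420 to 1.09, include no change. Tomm40l overlaps Nr1i3 on the other strand, and the counting rule is not known to separate strands, so its counts are uncertain to that extent.

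The promoters of this pair are shown because both genes answer foreign compounds and, of the 45 pairs, theirs had the highest Spearman coefficient of deviations from the group means, as given further on. They are the 250 bases before the RefSeq start on the GRCm38.p6 assembly, 5′ to 3′ on the strand of the gene, chr16:38294825-38295074 for Nr1i2 and chr1:171213720-171213969 for Nr1i3. Capitals mark matches to the motifs searched.
Nr1i2 promoter: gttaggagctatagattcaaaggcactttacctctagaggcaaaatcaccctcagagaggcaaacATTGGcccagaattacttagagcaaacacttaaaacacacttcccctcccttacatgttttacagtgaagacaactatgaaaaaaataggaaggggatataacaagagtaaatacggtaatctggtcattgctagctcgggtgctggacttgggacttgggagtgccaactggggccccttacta
Nr1i3 promoter: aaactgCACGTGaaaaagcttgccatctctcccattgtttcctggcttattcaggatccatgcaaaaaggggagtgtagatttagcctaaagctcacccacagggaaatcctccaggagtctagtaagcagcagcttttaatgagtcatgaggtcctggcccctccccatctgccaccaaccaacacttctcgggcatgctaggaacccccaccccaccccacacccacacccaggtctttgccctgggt
Both strands were searched for 8 motifs: the receptor element AGGTCA, its direct repeat spaced by a base (DR1), the ERR element TCAAGGTCA, the E-box CACGTG, the D-box TTATGNAA, the AHR core GCGTG, the promoter box known by its letters CCAAT and the TATA box as TATAAA. The motif AGGTCA lies within the repeat and the ERR element, so those matches overlap. Counting back from the start, Nr1i2 had only a CCAAT on the other strand at -185 to -181, a motif held by 33.8% of 32851 promoters of this length. Nr1i3 had only an E-box at -244 to -239, held by 6.02%. Neither window held AGGTCA, which 14.0% of promoters do.

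The bile acid receptor Nr1h4 (ENSMUSG00000047638; chr10:89454234-89506658, minus strand, up to 10 exons) was even in most libraries. It held 46.5, 50.4, 49.9 and 54.0 FPKM in the libraries labelled knockdown with berberine, against 60.0, 41.9, 41.8 and 47.2 FPKM in the negative controls with berberine. It held 52.3, 40.1, 49.1 and 21.9 FPKM in the libraries labelled knockdown, against 39.0, 38.6, 50.8 and 51.1 FPKM in the negative controls. Only knockdown library 4 stood apart, at less than any other library. Fitted log2 fold changes were between -0.06 and 0.17 in the 4 comparisons (SE 0.19 each, adjusted p from 0.785 by edgeR's quasi-likelihood test).

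Rxra (ENSMUSG00000015846; chr2:27676440-27762957, plus strand, up to 11 exons), the shared partner, showed the same low library. Its levels were 41.5, 37.8, 42.4 and 46.7 FPKM in the libraries labelled knockdown with berberine, against 38.4, 45.7, 49.3 and 51.2 FPKM in the negative controls with berberine. They were 44.7, 52.0, 47.1 and 21.6 FPKM in the libraries labelled knockdown, against 48.6, 56.9, 51.0 and 53.0 FPKM in the negative controls. Knockdown library 4 is the one with the high mitochondrial share, and after TMM scaling it was still the lowest of its group, with 193 CPM against 322 to 381 in the other 3. Scaled in this way, the berberine-treated controls (266 to 346.5 CPM) lay just below the untreated controls (347.3 to 377) without overlap, while in FPKM they overlapped. The log2 fold change of berberine in the negative controls was -0.17 (SE 0.18), and that of the label without berberine was -0.26 (SE 0.18). Their adjusted p-values were 0.999 and 0.475 by edgeR's quasi-likelihood test, and the 95% interval of the fold for the label was 0.645 to 1.08.

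The oxysterol receptor Nr1h3 (ENSMUSG00000002108; chr2:91184061-91202834, minus strand, up to 10 exons) varied least. Its highest library was 1.38 times its lowest, and its group means were 23.1 ± 1.99, 23.4 ± 2.51, 24.5 ± 3.20 and 25.2 ± 3.23 FPKM in the libraries labelled knockdown with berberine, those labelled knockdown, the negative controls with berberine and the negative controls (SD, n = 4 each). All 4 groups overlapped. Its fitted log2 fold changes lay between -0.20 and 0.02 (SE 0.15 each), with adjusted p-values from 0.700 by edgeR's quasi-likelihood test. Gm13783 overlaps it on the same strand and Gm23390 on the other, so some counts may belong to them.

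**Figure D2:**
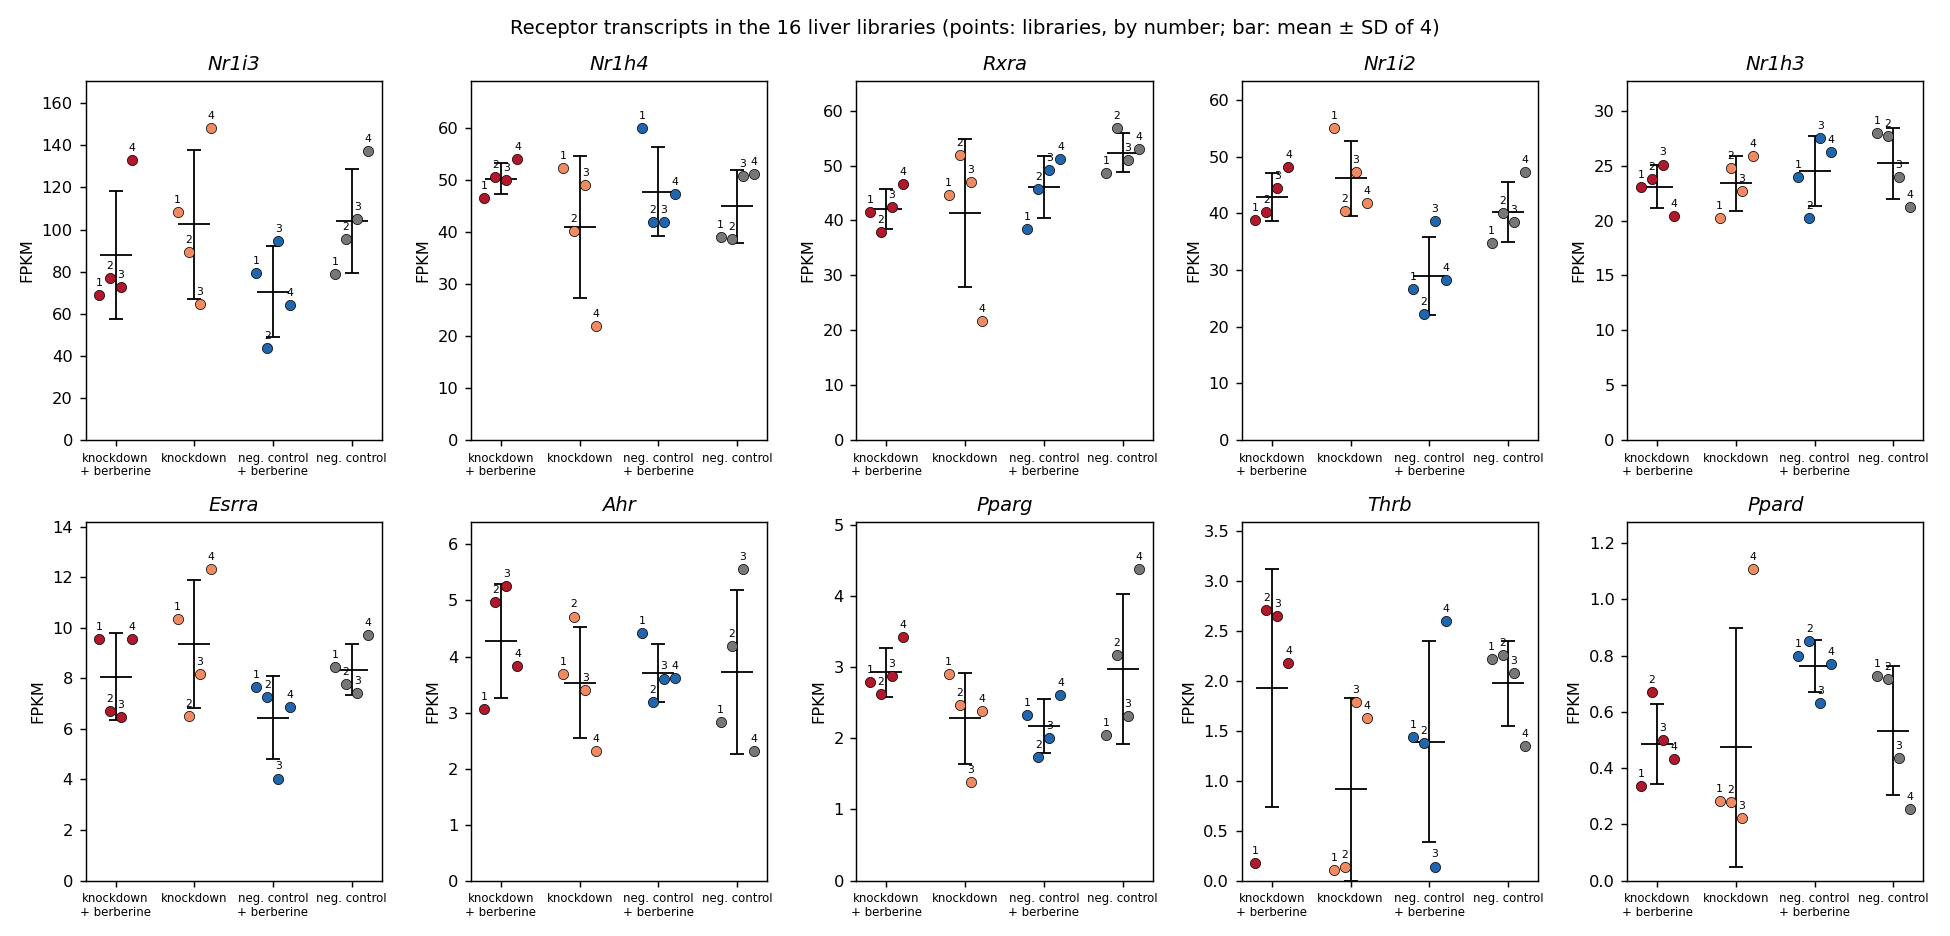
FPKM of the 10 receptor transcripts in each of the 16 libraries (points, numbered by library), with the mean and SD of the 4 libraries of each group; each panel has its own axis from 0. Thrb splits within 3 of the groups into libraries near 0 and libraries above 1 FPKM, and the berberine-treated negative controls lie low for Nr1i2.

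The fatty acid receptors were scarce. Pparg (ENSMUSG00000000440; chr6:115360951-115490399, plus strand, up to 8 exons), a driver of fat storage, held 2.79, 2.62, 2.87 and 3.42 FPKM in the libraries labelled knockdown with berberine, against 2.33, 1.74, 2.00 and 2.60 FPKM in the negative controls with berberine. It held 2.90, 2.46, 1.38 and 2.38 FPKM in the libraries labelled knockdown, against 2.05, 3.17, 2.31 and 4.38 FPKM in the negative controls. The berberine-treated groups did not overlap in FPKM, by 2.62 against 2.60 FPKM, and overlapped after TMM scaling. Its log2 fold changes of berberine were 0.19 (SE 0.26) under the knockdown label and -0.44 (SE 0.26) in the negative controls, a difference of 0.63 (SE 0.37, unadjusted p = 0.107, adjusted p = 0.770 by edgeR's quasi-likelihood test). The adipocyte markers Adipoq, Plin1, Lep and Retn summed to 0 to 1.43 FPKM in all libraries, with Lep at 0 in all libraries of 3 groups.

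Ppard (ENSMUSG00000002250; chr17:28232700-28301474, plus strand, up to 8 exons), a regulator of fatty acid oxidation, reached 1 FPKM in 1 library and was outside the filter of the test, which asked for at least 1 FPKM in at least 4 libraries. It held 0.338, 0.672, 0.500 and 0.431 FPKM in the libraries labelled knockdown with berberine, against 0.798, 0.853, 0.633 and 0.769 FPKM in the negative controls with berberine. In the libraries labelled knockdown it held 0.283, 0.281, 0.224 and 1.11 FPKM, against 0.726, 0.718, 0.437 and 0.254 FPKM in the negative controls. Knockdown library 4 held the highest level of all, and the other 3 of that group were among the lowest. In the fit without a filter (30801 genes) the log2 fold change of the label under berberine was -0.74 (SE 0.46, adjusted p = 0.667 by edgeR's quasi-likelihood test). That gene rests on 104 to 495 counts per library.

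Ahr (ENSMUSG00000019256; chr12:35497974-35535038, minus strand, up to 11 exons) averaged 4.28 ± 1.02 FPKM in the libraries labelled knockdown with berberine, 3.53 ± 0.988 FPKM in those labelled knockdown, 3.71 ± 0.515 FPKM in the negative controls with berberine and 3.72 ± 1.46 FPKM in the negative controls (SD, n = 4 each). Its lowest library held 2.31 FPKM and its highest 5.57 FPKM, and all groups overlapped. Fitted log2 fold changes lay between -0.01 and 0.16 (SE 0.26 each), with adjusted p-values from 0.883 by edgeR's quasi-likelihood test. Esrra (ENSMUSG00000024955; chr19:6910977-6921840, minus strand, up to 7 exons) averaged 8.07 ± 1.72, 9.35 ± 2.54, 6.45 ± 1.64 and 8.35 ± 1.01 FPKM in the same order of groups (SD, n = 4 each). Its lowest library was berberine-treated control 3 (4.04 FPKM) and its highest knockdown library 4 (12.3 FPKM). The log2 fold change of berberine was -0.40 under the knockdown label and -0.36 in the negative controls (SE 0.26 each, adjusted p = 0.630 and 0.999 by the same test). Trmt112 on the other strand and Mir6990 on the same strand overlap Esrra.

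Thrb was the receptor with the widest spread, 25.1 times between its lowest and highest library. The gene (ENSMUSG00000021779; chr14:17660261-18033792, plus strand, up to 10 exons) held 0.174, 2.72, 2.65 and 2.18 FPKM in the libraries labelled knockdown with berberine, against 1.44, 1.38, 0.141 and 2.60 FPKM in the negative controls with berberine. It held 0.108, 0.136, 1.79 and 1.62 FPKM in the libraries labelled knockdown, against 2.22, 2.26, 2.08 and 1.35 FPKM in the negative controls. The 4 low libraries, knockdown 1 and 2, knockdown with berberine 1 and berberine-treated control 3, held 52 to 78 counts, and the other 12 held 604 to 1203, with none between. The low libraries came from 3 of the 4 groups, so the split does not follow the labels. The other 9 receptors spanned 1.38 to 4.95 times.

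The fit of Thrb was correspondingly wide. Its log2 fold change was -0.95 (SE 0.94) for the label without berberine, with a 95% interval of the fold from 0.130 to 2.07 and adjusted p = 0.629 by edgeR's quasi-likelihood test. It was 0.87 (SE 0.94, adjusted p = 0.780) for berberine under the knockdown label. Without knockdown libraries 3 and 4, which leaves the low pair of that group, the values were -3.92 (unadjusted p = 0.00432) and 3.86 (unadjusted p = 0.00473), with adjusted p-values of 1.000 and 0.771. RefSeq gives Thrb a pair of starts that lie far apart, and the table has a single row for the gene, so the level of each transcript is not separated. Both promoter windows, on GRCm38.p6, plus strand, chr14:17660710-17660959 and chr14:17981394-17981643, are shown because use of either start would count towards the same row.
Thrb upstream start: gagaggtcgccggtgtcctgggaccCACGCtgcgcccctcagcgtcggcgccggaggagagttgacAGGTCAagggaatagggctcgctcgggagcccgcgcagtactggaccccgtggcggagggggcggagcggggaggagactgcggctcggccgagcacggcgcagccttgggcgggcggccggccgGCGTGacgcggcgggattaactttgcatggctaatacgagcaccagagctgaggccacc
Thrb downstream start: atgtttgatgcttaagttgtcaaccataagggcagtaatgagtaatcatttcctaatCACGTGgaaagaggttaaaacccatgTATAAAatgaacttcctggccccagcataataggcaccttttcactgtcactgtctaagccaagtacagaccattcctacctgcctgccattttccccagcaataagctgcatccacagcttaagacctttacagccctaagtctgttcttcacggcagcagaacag
The upstream window held AGGTCA at -184 to -179 and GCGTG at -59 to -55, with GCGTG on the other strand at -225 to -221 (28.2% of promoters hold GCGTG). The downstream window held an E-box at -193 to -188 and TATAAA at -167 to -162 (12.4% of promoters hold TATAAA). Their GC contents were 71.6% and 44.0%, against a median of 52.4% over all promoters. Gm24140, Gm48320 and Gm48321 overlap Thrb on the other strand.

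Across the 4 comparisons, no receptor passed the test. Of the 10, 9 were within the filter, and 0 of 9 were called at an adjusted p under 0.05 in any comparison or in the interaction, by edgeR or by DESeq2, where edgeR called 0.0% of the 10846 genes in each. Without knockdown library 2, edgeR called 609 genes for the label and 41 for berberine under it, and none was among the 9. At an unadjusted p under 0.05 the count was 0 of 9 for the knockdown label over control, where 14.8% of all genes had such a p, and 1 of 9 under berberine, where 4.57% had. For berberine over none it was 0 of 9 under the knockdown label (background 9.48%) and 1 of 9 in the negative controls (background 3.68%), and 0 of 9 for the interaction (background 6.56%). The single receptor was Nr1i2 each time. DESeq2 called 105 genes for the label, or 0.968% of those tested, and 5, 55, 3 and 10 genes (0.0461%, 0.507%, 0.0277% and 0.0922%) for the label under berberine, berberine under the knockdown label, berberine in the controls and the interaction.

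The signs leaned 1 way only where the berberine-treated controls entered. In those controls 8 of the 9 receptors were fitted lower than in untreated controls, with a median log2 fold change of -0.36, where the median over all genes was -0.00 and 49.7% of genes were fitted higher. Of the 8, Ahr (-0.01) and Nr1h3 (-0.04) lay near 0 and changed sign in 17 of 28 and 2 of 29 settings. Under berberine, 7 of the 9 were fitted higher in the libraries labelled knockdown than in the controls, with a median of 0.26 where all genes had -0.01 and 49.0% were higher. Of the 7, Nr1h4 (0.02) lay near 0 and changed sign in 6 of 29 settings. The other comparisons were split, 5 higher and 4 lower for the label without berberine (median 0.01 against 0.02 for all genes) and 4 higher and 5 lower for berberine under the knockdown label (median -0.10 against -0.03), where 51.9% and 46.6% of all genes were higher. After TMM scaling, the groups did not overlap for 1 receptor, Rxra, for berberine in the controls, where 3.55% of all genes had groups that did not overlap, and for 0 in the other 3 comparisons (4.88% for the label, 4.59% for the label under berberine, 3.91% for berberine under the knockdown label). In FPKM they did not overlap for 2, Nr1i2 and Pparg, for the label under berberine (4.36% of genes), and for 0 elsewhere (5.57% for the label, 5.08% for berberine under the knockdown label, 2.93% for berberine in the controls). Each pair of comparisons that shares a group shares its libraries, so these counts are not independent.

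**Figure D3:**
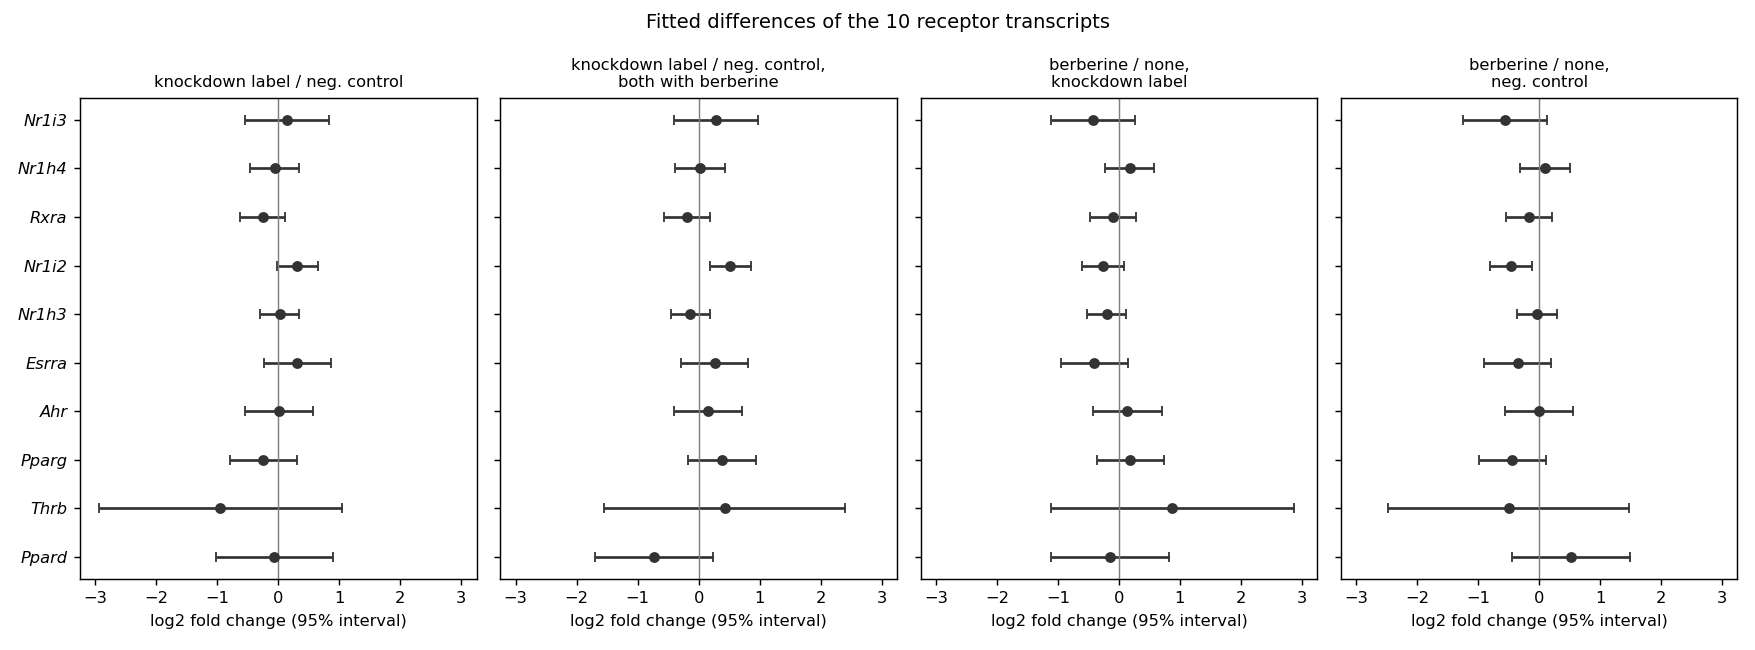
Fitted log2 fold changes with 95% intervals of the 10 receptor transcripts in the 4 comparisons, from edgeR's fit to counts (Ppard from the fit without a filter). The intervals of Nr1i2 exclude 0 for the label under berberine and for berberine in the negative controls before adjustment, and those of Thrb are the widest.

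Between mice of a group, the receptors were not shown to move as a block. Pearson and Spearman correlations of log2 CPM were computed for 45 pairs over 16 libraries after subtracting group means. At an adjusted p under 0.05, 0 pairs passed, and 5 of the 45 had an unadjusted permutation p under 0.05 for r. Among positive pairs, Nr1h3 and Ppard had the highest r, 0.746 (permutation p = 0.0256, adjusted p = 0.244), with rho = 0.624 (permutation p = 0.0304, adjusted p = 0.342) and r = 0.551 without knockdown libraries 1 and 4. Nr1i2 and Nr1i3 had the highest rho and the smallest p-values, with r = 0.717 (permutation p = 0.0037, adjusted p = 0.163) and rho = 0.797 (permutation p = 0.00143, adjusted p = 0.0643). Without the libraries farthest from the median of Nr1i2, berberine-treated control 3 and knockdown with berberine 4, r was 0.638. The strongest negative pair was Nr1h3 and Nr1h4, with r = -0.763 (permutation p = 0.0109, adjusted p = 0.163) and rho = -0.676 (permutation p = 0.0182, adjusted p = 0.272), and r was -0.524 without knockdown libraries 1 and 4. Of the 45 coefficients, 20 were positive and 25 negative, with a median of -0.02.

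Acute phase genes, macrophage markers, Dbp and the mitochondrial share were set beside the receptors in the same way, a family of 40 correlations in which none passed. Nr1i3 and the mitochondrial share had r = 0.661 (permutation p = 0.0108, adjusted p = 0.216) and rho = 0.565 (permutation p = 0.0402, adjusted p = 0.402). Without knockdown libraries 3 and 4 that r was 0.284. Larger in size with the share were Rxra (r = -0.778, permutation p = 0.173) and Ppard (r = 0.715, permutation p = 0.241). Without those libraries they had -0.391 and -0.027. Nr1h4 had -0.637, Esrra 0.615 and Nr1h3 0.604 over all libraries. Nr1i2 and Dbp, a clock output gene, had r = 0.589 (permutation p = 0.0474, adjusted p = 0.448) and rho = 0.624 (permutation p = 0.0308, adjusted p = 0.402), with r = 0.683 without berberine-treated control 4 and knockdown with berberine 4. Pparg and Dbp had the smallest p of the 40 for r, with r = 0.477 (permutation p = 0.0102, adjusted p = 0.216). Their rho was 0.559 (permutation p = 0.0136, adjusted p = 0.402), and r was 0.398 without the same libraries. All 12 acute phase genes were fitted higher for the label without berberine (51.9% of all genes were) and for berberine in the controls (49.7%), and none was called by edgeR. For the label, all but Apcs and Fgb had an unadjusted p under 0.05 by edgeR's quasi-likelihood test (14.8% of all genes). For berberine in the controls, all but Fgb, Hp, Itih4, Orm3 and Socs3 had such a p (3.68%). Single libraries held the highest sums. The median was 4914 FPKM in the libraries labelled knockdown. It was 3730 FPKM in the berberine-treated controls, within the 2905 to 3758 FPKM of the negative controls. Knockdown library 4 had the lowest sum of its group (2174 FPKM), below every negative control. That library has the mitochondrial share of 35.4%, for which FPKM is not corrected. The part of the acute phase genes in the values of the receptors was not tested beyond these correlations. With the list, Nr1i2 had r = -0.143 (permutation p = 0.671, adjusted p = 0.840) and rho = 0.044 (permutation p = 0.885, adjusted p = 0.931). Without knockdown library 3 and berberine-treated control 2 its r was 0.308. Nr1i3 had the r largest in size, -0.562 (permutation p = 0.0827, adjusted p = 0.552), or -0.180 without the same libraries. Nr1h3 (-0.485) and Pparg (-0.478) followed, and Rxra, Nr1h4 and Thrb had positive r (0.415, 0.281 and 0.255). Berberine-treated control 2 held the lowest Nr1i2 (22.2 FPKM) and Nr1i3 (43.7 FPKM) of the 16 libraries. Knockdown library 3 held the lowest Nr1i3 (64.4 FPKM) and Pparg (1.38 FPKM) of its group. Kupffer cell and macrophage markers were fitted higher in 8 of 8 cases for the label without berberine (51.9% of all genes) and in 8 of 8 for berberine in the controls (49.7%), none of them called. For the label, all but Marco had an unadjusted p under 0.05 by the same test (14.8% of all genes). For berberine in the controls only Mpeg1 had such a p (3.68%). The markers summed to 34.7 to 97.6, 60.0 to 155, 27.9 to 69.4 and 26.9 to 61.8 FPKM in the libraries labelled knockdown with berberine, those labelled knockdown, the negative controls with berberine and the negative controls.

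**Figure D4:**
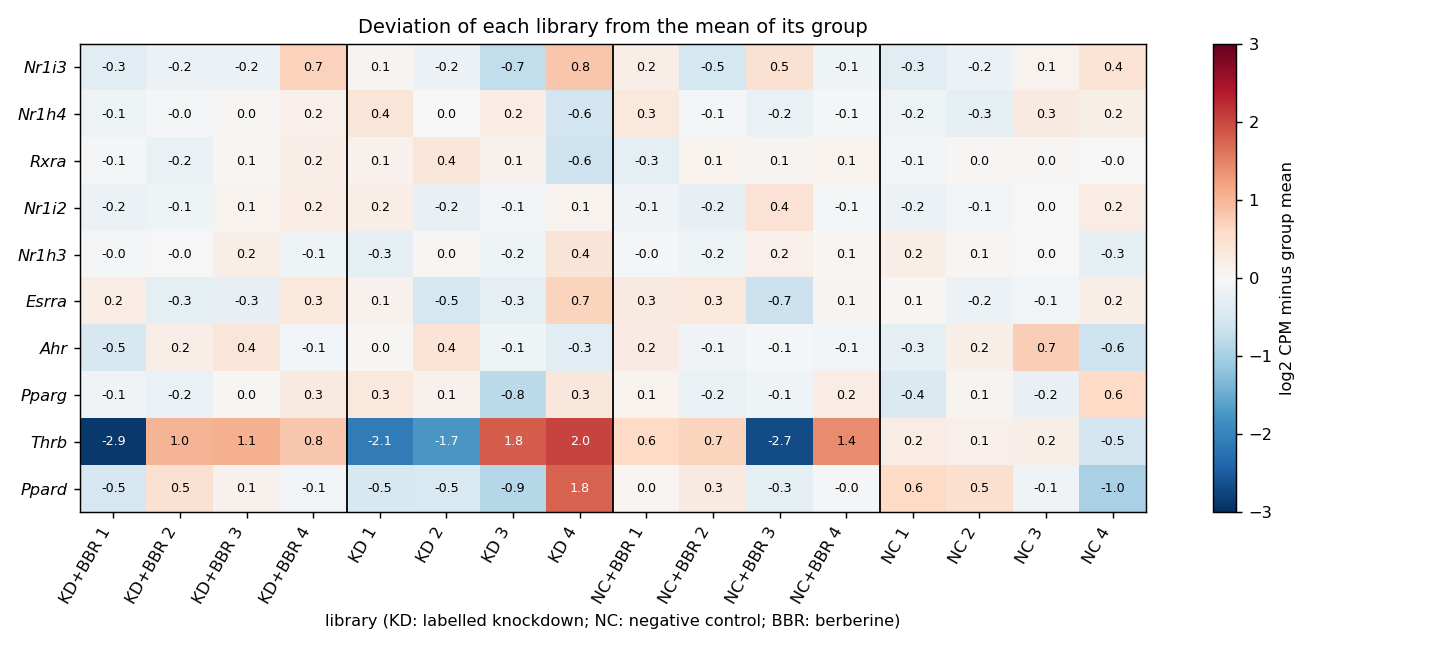
Deviation of each library from the mean of its group, in log2 CPM, for the 10 receptors (rows) and 16 libraries (columns; KD, labelled knockdown; NC, negative control; BBR, berberine). Thrb deviates by more than 1.5 in knockdown 1 to 4, knockdown with berberine 1 and berberine-treated control 3, and knockdown library 4 is low for Nr1h4 and Rxra and high for Ppard, Nr1i3 and Esrra.

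The tested gene whose log2 CPM ran most like each receptor over the 16 libraries was also looked up, with Pearson's r as the measure of likeness. Since it is the highest of all tested genes, r is a description and has no test. It was Morc3 for Nr1i2 and Akip1 for Nr1i3 (0.91 each), Cttn for Nr1h3 (0.90), Dnttip2 for Nr1h4 (0.87) and Tm2d2 for Rxra (0.92). Mtnr1a was closest to Ppard (0.87), Abhd6 to Pparg (0.86), Trp53inp1 to Ahr (0.82) and Nprl3 to Esrra (0.83). Rnf4 was closest to Thrb, with 0.79, and Spearman's rho for that pair was 0.46.

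Known target genes of each receptor are given next, from lists drawn up by textbook role. No listed gene was called by edgeR in any comparison. For listed genes, here and below, means are in FPKM and overlap of groups was judged on CPM after TMM scaling. For PXR and CAR, 18 of 21 listed targets were tested. In the libraries labelled knockdown, compared with the controls, 8 were fitted higher and 10 lower. Their median log2 fold change was -0.17, and 51.9% of all genes were fitted higher. Of the 18, 2 were lower with an unadjusted p under 0.05, as were 6.45% of all genes. Cyp3a11, the main drug-metabolizing P450 induced by PXR in mouse, averaged 176 ± 78.8 FPKM in the libraries labelled knockdown and 343 ± 65.3 FPKM in the controls (SD, n = 4 each). In CPM its groups did not overlap, as for 4.88% of all genes (log2 fold change -0.88, SE 0.31, adjusted p = 0.290 by edgeR's quasi-likelihood test). Under berberine the means were 288 ± 5.76 FPKM with the label and 219.7 ± 88.7 FPKM in the controls. Cyp2c29, another inducible P450, averaged 110 ± 95.9 FPKM in the libraries labelled knockdown and 246 ± 83.1 FPKM in the controls. Nr1i2 itself averaged more in the libraries labelled knockdown than in the controls, and Cyp3a11 less.

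Targets of LXR were fitted in both directions. Lpl, which releases fatty acids from lipoproteins, averaged 5.20 ± 1.05 FPKM in berberine-treated controls and 2.78 ± 0.59 FPKM in untreated controls (log2 fold change 0.92, SE 0.26). In CPM these groups did not overlap for Lpl, as for 3.55% of all genes. Scd1, a desaturase, averaged 187 ± 94.1 and 541 ± 330.2 FPKM in them (-1.50, SE 0.44), with overlap in CPM. For both, edgeR's quasi-likelihood test gave adjusted p = 0.999. Fasn, the fatty acid synthase, averaged 26.4 ± 14.0 FPKM in the libraries labelled knockdown with berberine and 10.4 ± 1.08 FPKM in those labelled knockdown (1.17, SE 0.33, adjusted p = 0.396 by the same test). Of the 13 LXR targets tested of 14 listed, 4 were fitted higher and 9 lower for berberine in each vector group. The medians were -0.06 under the knockdown label and -0.16 in the controls. In the same order, 46.6% and 49.7% of all genes were fitted higher.

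For FXR, 9 of 11 induced targets were tested, and 0 of them had an unadjusted p under 0.05 in any of the 4 comparisons. Over all genes, 3.68% to 14.8% had such a p in those comparisons. Cyp8b1, the sterol hydroxylase of cholic acid synthesis that FXR and SHP repress, averaged 160.4 ± 67.7 FPKM in the libraries labelled knockdown and 323 ± 91.8 FPKM in the controls (log2 fold change -0.91, SE 0.30, adjusted p = 0.267 by edgeR's quasi-likelihood test), with overlap. Cyp7a1, the rate-limiting enzyme of bile acid synthesis, averaged 6.31 ± 1.74 and 13.1 ± 6.38 FPKM in the same groups. All 3 genes of that repressed list were fitted lower for the label (median -0.91), where 51.9% of all genes were fitted higher. Of the 3, 1 (Cyp8b1) was lower with an unadjusted p under 0.05, as were 6.45% of all genes.

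Targets of the fatty acid receptors gave no call. Of 15 fat oxidation genes, 13 were fitted lower for the label without berberine (median -0.29), and 13 for berberine in the controls (median -0.33). In these comparisons 51.9% and 49.7% of all genes were fitted higher. For the label, 5 of the 15 were lower with an unadjusted p under 0.05, as were 6.45% of all genes. For berberine in the controls, 1 of the 15 was, as were 1.94% of all genes. Ehhadh, of peroxisomal oxidation, averaged 141 ± 92.6 FPKM in the libraries labelled knockdown and 316 ± 126 FPKM in the controls (-1.08, SE 0.42, adjusted p = 0.298 by edgeR's quasi-likelihood test). This list answers chiefly to PPAR alpha in liver, which is not among the 10. The 8 fat storage genes split for the label into 5 fitted lower and 3 higher, with Fabp4, G0s2 and Plin4 the higher ones. Cd36, a fatty acid transporter, averaged 8.28 ± 7.31 FPKM in the libraries labelled knockdown and 25.5 ± 5.54 FPKM in the controls (-1.54, SE 0.45, adjusted p = 0.267 by the same test). All 8 were fitted lower for berberine in the controls (median -0.82), where 49.7% of all genes were fitted higher. Of the 8, 1 was lower with an unadjusted p under 0.05, as were 1.94% of all genes.

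AHR targets, 6 tested of 10 listed, were split for berberine under the knockdown label, 4 fitted higher and 2 lower (median 0.32). Among all genes, 46.6% were fitted higher there. Cyp1a2, a liver P450 that oxidizes aromatic amines, averaged 237 ± 13.4 FPKM in the libraries labelled knockdown with berberine and 142 ± 50.5 FPKM in those labelled knockdown (log2 fold change 0.60, SE 0.19, adjusted p = 0.396 by edgeR's quasi-likelihood test), with overlap. Aldh3a1, an aldehyde dehydrogenase, was fitted the other way (-4.96, SE 1.95, adjusted p = 0.472 by the same test), as was Ugt1a6b (-1.61, SE 0.78, adjusted p = 0.534 by the same test). ERR alpha targets of mitochondria, 13 tested, were fitted lower for the label without berberine in 11 cases (median -0.14). Among all genes, 51.9% were fitted higher for the label. Thyroid hormone targets numbered 5 tested of 6. Thrsp, a lipogenic gene induced by the hormone, averaged 20.2 ± 10.5 FPKM in berberine-treated controls and 52.0 ± 34.1 FPKM in untreated controls (-1.36, SE 0.44, adjusted p = 0.999 by the same test). Dio1, the liver deiodinase and a direct target of TR beta, averaged 39.2 ± 12.8, 40.3 ± 11.3, 56.6 ± 10.1 and 50.6 ± 7.61 FPKM in the libraries labelled knockdown with berberine, those labelled knockdown, the negative controls with berberine and the negative controls.

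**Figure D5:**
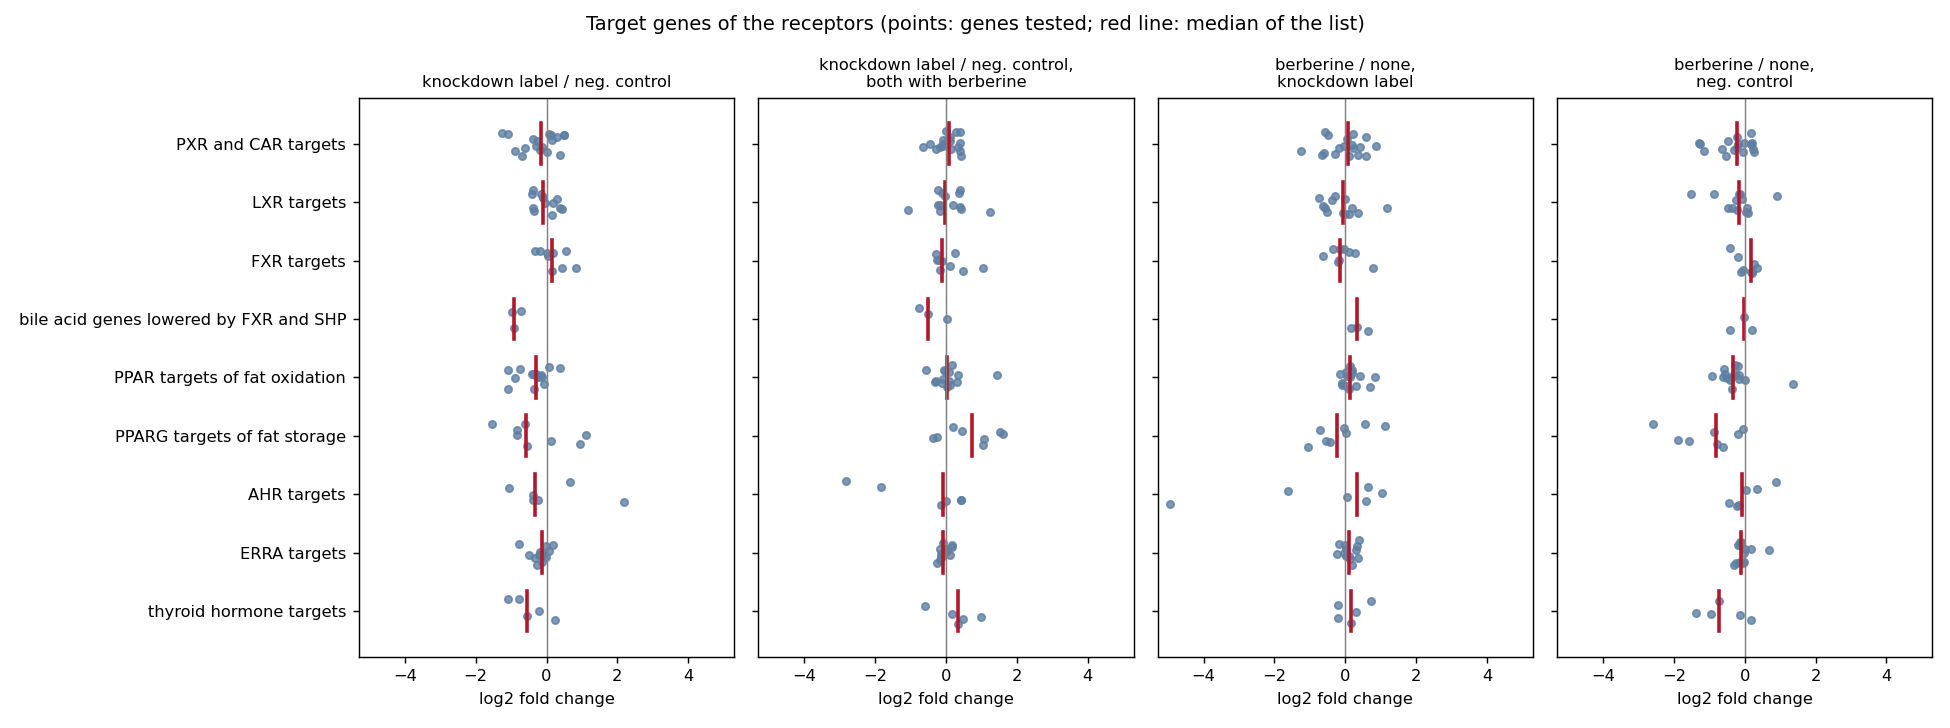
Fitted log2 fold changes of the tested target genes of each receptor (points) in the 4 comparisons, with the median of each list in red. No point passed the adjusted threshold, and the list medians lie between -0.91 and 0.75.

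Partners and coregulators were measured too, 16 tested of 19 listed. Arnt, the partner of AHR, averaged 0.795 ± 0.277 FPKM in berberine-treated controls and 2.02 ± 0.544 FPKM in untreated controls. In CPM these groups did not overlap, as for 3.55% of all genes (log2 fold change -1.34, SE 0.48, adjusted p = 0.999 by edgeR's quasi-likelihood test). Ep300, a histone acetyltransferase and coactivator, averaged 1.49 ± 0.169 FPKM in the libraries labelled knockdown and 1.20 ± 0.150 FPKM in the controls (0.43, SE 0.14, adjusted p = 0.279 by the same test). Of the other nuclear receptors listed, 19 of 38 were tested. The groups of Nr1h2 (LXR beta) did not overlap in CPM for the label, as for 4.88% of all genes. Nr1h2 averaged 12.1 ± 3.20 FPKM in the libraries labelled knockdown and 8.07 ± 0.703 FPKM in the controls (0.73, SE 0.20, adjusted p = 0.267 by the same test). It was the 1 of the 19 with an unadjusted p under 0.05 there, a share below the 14.8% of all genes.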

How the data were processed

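Poly(A) RNA of 16 mouse livers was sequenced as paired reads. The deposited table gives, per the file headers, counts (whole numbers) and FPKM for 55401 Ensembl genes in each library; FPKM is scaled by the authors to gene length and library total. The submitters' processing notes name mm10, DESeq2, edgeR, StringTie 1.3.4d, HISAT2 2.0.4 and cutadapt 1.9, without roles. The rule and strand of counting are not given in the sources used here, and a count of 4 occurs in 760 to 1283 genes per library against 144 to 208 for 5. GENCODE M21 holds 99.5% of the identifiers and gave strands, exons and overlaps. All 16 per-library columns were used, and 0 pairs of columns were identical.

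Genes with at least 1 FPKM in at least 4 of 16 libraries (10846) were tested on counts with edgeR 4.0.16 (TMM, a common fit of 4 group means, two-sided quasi-likelihood tests, Benjamini-Hochberg at 0.05). The fit recovered known changes in data simulated with the same spread for all genes and no outlying libraries. That check does not give the power of the test in these libraries. Intervals are at 95%, for the fitted difference of group means, and each SE was computed back from the fold change and the test statistic. Only the titles number the mice, and intervals and p-values use the spread between these libraries as their error. Log2 CPM used a prior count of 2, and permutation tests 100000 resamples. DESeq2 1.42.0, limma 3.58.1, other filters, scaling and left-out libraries were alternatives. Promoters are RefSeq's (GRCm38.p6), found for 9 of the 10 genes (not Ahr), 14 starts in all. The 20 lists hold 226 genes, 225 of them in the table. Named are, per list, the 2 most abundant genes and the 3 with the smallest p, and not all are printed. The 10 genes and the lists were chosen with earlier results of these data known, and the library features after seeing the data. R 4.3.3 and Python 3.11.15 were used.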

Additional observations from a re-analysis of the deposited data

Results flagged for a closer look

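In 2 of the 40 groups of 4 values of the receptors, a library lay further from the other 3 than the 95% critical value of Dixon's ratio, and chance flags about 1 in 20. Nr1i3 held 133.0 FPKM in knockdown with berberine library 4, where the other 3 held 68.9 to 77.0 FPKM. Leaving it out gave berberine under the knockdown label a log2 fold change of -0.72 (unadjusted p = 0.043, adjusted p = 0.487 by edgeR's quasi-likelihood test) in place of -0.42, while leaving out knockdown library 4 gave -0.07 (adjusted p = 0.958 by the same test). Ppard held 1.11 FPKM in knockdown library 4, where the other 3 held 0.224 to 0.283 FPKM. That library has the mitochondrial share of 35.4%, and the part of this share in the level was not tested.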

How the results depend on the processing

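No receptor was called under any alternative run in any comparison. Beside the 50 receptor values reported, 1155 alternative values kept their direction and 81, of receptors not called, crossed 0. DESeq2 called 105 genes for the label, 5 for the label under berberine, 55 and 3 for berberine under the knockdown label and in the controls, and 10 for the interaction, where edgeR called 0. Limma voom with library weights called 4 for the label, and the fit of only the groups compared called 1 for berberine in the controls, which left the interaction not run. Without knockdown libraries 3 and 4, 1 gene was called for the label, for berberine under it and for the interaction. Receptors with an unadjusted p under 0.05 numbered 1 for the label at a filter of 5 FPKM, 2 for the label and 1 for berberine under it with voom, 2 for berberine in the controls with only the groups compared, 1 for the interaction with limma on log2(FPKM + 1) and on log2(FPKM + 0.1), and 1 for the label, for berberine under it and for the interaction without knockdown libraries 3 and 4.

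With each library left out in turn, the genes called ranged from 0 to 609 for the label (609 without knockdown library 2), 0 to 1 for the label under berberine, 0 to 41 for berberine under the knockdown label (41 without knockdown library 2), 0 to 1 for berberine in the controls and 0 to 1 for the interaction. Receptors called stayed at 0, and those with an unadjusted p under 0.05 ranged from 0 to 1, 1 to 1, 0 to 1, 1 to 2 and 0 to 0 in the same order. Rxra had such a p for berberine under the knockdown label only without knockdown library 4 (log2 fold change -0.27, unadjusted p = 0.0488), and Esrra only without knockdown library 2 (-0.55, unadjusted p = 0.0476). The cause was not tested in any of these cases.

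The replicate numbers did not pair the samples: same-numbered libraries correlated at -0.166 to 0.214 after subtracting group means, others at -0.230 to 0.271, and 5 of 16 libraries correlated best with their own number. With the replicate number as a block, Nr1i2 had -0.48 for berberine in the controls (main -0.47), and no receptor or gene count moved. Ppard has a value only in the fit without a filter. With 4 libraries a group, the fits do not exclude changes inside the 95% intervals given, which are not adjusted for the number of genes. Low counts limit Ppard and the low Thrb libraries.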

Other observations

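Of 14 clock genes tested, a set outside the receptors, 11 were fitted lower in the berberine-treated than in the untreated controls (median log2 fold change -0.83). Among all genes, 49.7% were fitted higher. No clock gene was called by edgeR's quasi-likelihood test. Of the 14, 4 were lower with an unadjusted p under 0.05, as were 1.94% of all genes. The 3 fitted higher were Nfil3 at 0.96 (unadjusted p = 0.0222), and Arntl and Cry1 with larger p-values (0.0681 and 0.0861). Bhlhe40, a clock repressor, averaged 3.33 ± 0.823 FPKM in berberine-treated controls and 9.31 ± 2.58 FPKM in untreated controls (-1.47, unadjusted p = 0.0141 by the same test). In CPM these groups did not overlap for Bhlhe40, as for 3.55% of all genes. Per2, a core clock gene, averaged 1.42 ± 1.03 and 3.98 ± 2.68 FPKM in them (-1.48, unadjusted p = 0.0228). In the libraries labelled knockdown with berberine, Bhlhe40 averaged 10.3 ± 4.14 FPKM and Per2 4.39 ± 2.90 FPKM. The time of day of collection is not given in the sources used here.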
